A study of Mus musculus with 28 samples.

Results

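The 7 genes described here, Fam168b, St6galnac6, Nacc2, Gpc1, Arrb1, Slc2a6 and Ralgds, were transcripts of CTLL2 cells that were present without exosomes and stood moderately higher with them. They were chosen by name for that rise in these same libraries, so their exosome difference is given below as a description, with no test. All 7 were found among the 30608 genes of the deposited table, and all 7 were among the 14828 genes tested, those with 10 normalized counts or more in 3 or more libraries. A normalized count is the read count of a gene divided by 1 size factor per library. Of the 68 genes that limma called higher with exosomes over the 4 times together (adjusted p below 0.05), 20 averaged 10 or more normalized counts in untreated cells, and 4 of the 7 were among these: Fam168b, St6galnac6, Nacc2 and Arrb1. Gpc1, Slc2a6 and Ralgds did not reach that threshold. The 68 genes are 0.459% of the genes tested, and since the choice used this comparison nothing is read from the count.

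The study sequenced RNA of CTLL2, a cytotoxic T-cell line of the mouse that needs interleukin-2, with the strain given as C57BL/6, to follow their response to exosomes of B16F0 mouse melanoma cells. Exosomes are small vesicles that cells release, and they carry RNA and protein. There were 4 untreated samples of the start (0 h) and 3 each of 0.5, 2, 4 and 8 h in fresh medium, and cells given exosomes at 0.2 mg/ml in that medium were sampled at the same 4 times (n = 3 each). The sample descriptions place 1 library of each group, 9 in all, in batch 1 and the other 19 in batch 2. All groups are 1 cell line, the exosomes were suspended in saline buffer, and whether untreated cells received that buffer is not given in the sources used here. The replicates are called biological in the series design.

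Depth ranged from 6072984 to 24085812 reads per library. All 16 cytotoxic T-cell markers averaged at least 90.0 normalized counts over the libraries. Of 14 melanocyte transcripts (a list of 16 without Kit and Gpnmb, which CTLL2 cells express, and of which all 16 averaged higher with exosomes), the summed level ran from 12.3 to 21.2 in untreated and from 85.8 to 112.9 in exosome-treated libraries of batch 1, and from 9.57 to 37.0 and 98.5 to 200.9 in batch 2, with 0 h among the untreated. Tyrp1, an enzyme of melanin synthesis, was at 0 in all untreated libraries and averaged 15.3 in treated libraries of batch 1 and 49.6 in those of batch 2. The skeletal muscle actin gene Acta1 exceeded 20 in 8 libraries, 5 treated and 3 untreated, and was at most 4.71 in the rest; all 15 muscle genes listed averaged higher with exosomes.

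The 7 genes do not form 1 pathway. Gpc1 encodes glypican-1, a heparan sulfate proteoglycan tethered to the cell surface that holds growth factors near their receptors, and St6galnac6 a sialyltransferase of the Golgi that completes sialylated glycans of gangliosides. Arrb1 encodes beta-arrestin 1, which binds activated G protein-coupled receptors, ends their signal to the G protein and draws them into the cell. Ralgds encodes an exchange factor that active Ras recruits to switch on the small GTPases RalA and RalB. Slc2a6 encodes GLUT6, a hexose transporter of intracellular membranes, Nacc2 a BTB-domain repressor of transcription that recruits the NuRD deacetylase complex, and Fam168b a small membrane protein known as an inhibitor of neurite outgrowth.

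On GRCm38, with the GENCODE M21 annotation, 4 of the 7 lay on chromosome 2: Nacc2 (ENSMUSG00000026932.14, minus strand, 26055535 to 26123220), Slc2a6 (ENSMUSG00000036067.12, minus strand, 27021363 to 27027998), Ralgds (ENSMUSG00000026821.15, plus strand, 28513125 to 28553081) and St6galnac6 (ENSMUSG00000026811.18, plus strand, 32599709 to 32620806). The others were Fam168b (ENSMUSG00000037503.12, chromosome 1, minus strand, 34813219 to 34843065), Gpc1 (ENSMUSG00000034220.7, chromosome 1, plus strand, 92831645 to 92860779) and Arrb1 (ENSMUSG00000018909.15, chromosome 7, plus strand, 99535466 to 99606771). Whether the counting used strand is not given in the sources used here, so reads of genes on the opposite strand cannot be told apart from theirs. Fam168b overlaps Arhgef4 and Gm37127, which averaged 123.0 and 21.4 normalized counts over all libraries, treated ones included. Gpc1 overlaps Ankmy1, at 4.9 on the same scale. St6galnac6, Slc2a6 and Ralgds overlap no annotated gene.

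RefSeq promoters (GRCm38.p6, from 250 bases before to 50 after the annotated start) were at hand for only 4 of the 7, and these are shown. They are the same 4 genes that share chromosome 2. The rise with exosomes does not set them apart, since all 7 were chosen for it. The promoters are chr2:32599459-32599758 on the plus strand for St6galnac6, chr2:26122762-26123061 on the minus strand for Nacc2, chr2:27027949-27028248 on the minus strand for Slc2a6 and chr2:28512917-28513216 on the plus strand for Ralgds. For Nacc2 and Ralgds, 1 of 2 listed promoters is given, 409 and 42 bases from the GENCODE start. Each is written 5′ to 3′ in the direction of the gene, with capitals for a GC box (letters GGGCGG), the CCAAT box or an E-box (letters CACGTG) on either strand.
St6galnac6: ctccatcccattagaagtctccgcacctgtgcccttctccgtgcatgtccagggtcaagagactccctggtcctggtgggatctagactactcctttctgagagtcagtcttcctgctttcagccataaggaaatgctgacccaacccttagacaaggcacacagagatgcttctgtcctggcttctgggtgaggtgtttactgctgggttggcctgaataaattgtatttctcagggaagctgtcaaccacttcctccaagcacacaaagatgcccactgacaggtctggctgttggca
Nacc2: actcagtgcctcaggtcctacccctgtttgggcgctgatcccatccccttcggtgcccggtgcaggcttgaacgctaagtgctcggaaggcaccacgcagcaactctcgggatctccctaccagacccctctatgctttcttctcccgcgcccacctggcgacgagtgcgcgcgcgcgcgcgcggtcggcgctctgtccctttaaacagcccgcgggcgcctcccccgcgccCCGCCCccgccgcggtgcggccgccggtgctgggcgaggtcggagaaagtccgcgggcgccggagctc
Slc2a6: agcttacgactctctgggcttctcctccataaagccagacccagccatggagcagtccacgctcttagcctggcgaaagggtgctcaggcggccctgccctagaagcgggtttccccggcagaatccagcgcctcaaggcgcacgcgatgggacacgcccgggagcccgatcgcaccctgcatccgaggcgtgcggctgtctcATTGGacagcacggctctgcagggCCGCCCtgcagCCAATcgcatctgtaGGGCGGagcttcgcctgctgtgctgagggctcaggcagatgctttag
Ralgds: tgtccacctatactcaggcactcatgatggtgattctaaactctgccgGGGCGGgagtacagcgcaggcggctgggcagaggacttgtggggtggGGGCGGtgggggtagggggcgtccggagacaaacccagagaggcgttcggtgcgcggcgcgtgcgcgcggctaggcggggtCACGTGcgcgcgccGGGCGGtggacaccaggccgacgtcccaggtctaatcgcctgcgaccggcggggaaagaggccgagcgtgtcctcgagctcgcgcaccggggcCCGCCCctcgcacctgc

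The 4 promoters shared no motif among the 6 searched, on both strands. Ralgds held 4 GC boxes and 1 E-box, Slc2a6 2 GC boxes and 2 CCAAT boxes, Nacc2 1 GC box, and St6galnac6 0 of the 3. Of all 32851 promoters in the table, 35.7% held a GC box, 37.4% a CCAAT box and 7.15% an E-box. The letters TGACG, found in 20.8% of promoters, and the AP-1 letters TGANTCA, found in 7.81%, were in 0 of the 4. An NF-kB match, found in 4.51%, was in Nacc2 alone, and no match overlapped another. The GC content was 71.0% for Nacc2 and Ralgds, 64.7% for Slc2a6 and 52.0% for St6galnac6, against a median of 52.7% over all promoters. These matches describe the letters of the windows and nothing about what binds there.

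Levels differed widely between the 7 genes. Per kilobase of exon, Fam168b averaged 565 normalized counts in untreated cells at 0.5 to 8 h, and Ralgds 76.6. Slc2a6 followed at 14.7, Gpc1 at 5.89, St6galnac6 at 5.53, Nacc2 at 2.44 and Arrb1 at 2.06, on the same scale. By level without regard to length, Fam168b stood at the 92.3 percentile of the genes tested and Ralgds at the 55.0 percentile, while the other 5 were between the 15.7 and 24.5 percentiles. So Fam168b rested on between 1075 and 4670 reads per library, whereas Nacc2 in batch 1 rested on 1 to 15. Counting error alone is therefore large for Nacc2, Arrb1, Gpc1 and St6galnac6, and also for Slc2a6, with 12 reads in untreated 0 h replicate 1. In 5 of the 7 genes every library held 10 or more normalized counts, the exceptions being Nacc2 and Arrb1.

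**Figure D1:**
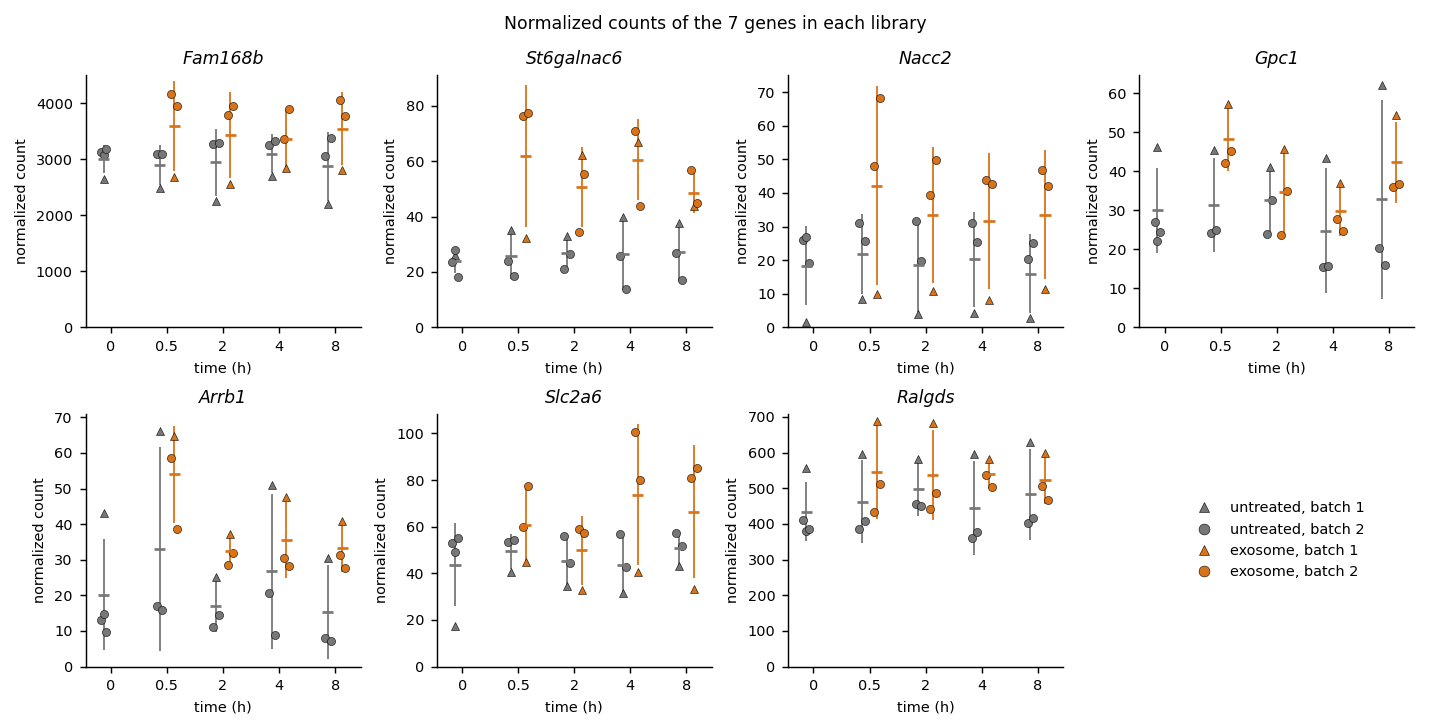
Normalized counts (vertical axes, linear, from 0) of the 7 genes against time in h, 1 point per library, grey for untreated and orange for exosome-treated cells, with batch 1 as triangles and batch 2 as circles. Each short bar is the mean of a group and its whisker the SD over 4 libraries at 0 h and 3 at each later time. Batch 1 lies apart from batch 2 for Nacc2 (1.44 to 11.5 against 19.2 to 68.4) and, without exosomes, for Arrb1 (25.2 to 66.2 against 7.14 to 20.7).

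Among the genes of the cell surface and its glycans, St6galnac6 had the largest difference. In batch 2 its untreated libraries at 0.5 to 8 h ran from 13.6 through a median of 22.6 to 26.7 normalized counts, and the treated ones from 34.5 through 56.3 to 77.3. Every one of the 8 treated libraries was above every one of the 8 untreated, the highest being the pair at 0.5 h, at 76.3 and 77.3. In batch 1 the untreated values at 0.5, 2, 4 and 8 h were 35.0, 33.1, 39.9 and 37.8, and the treated values 32.4, 62.2, 67.1 and 43.9. Here the treated library was lower at 0.5 h, where it held only 13 reads, and higher at the other 3 times. Over both batches St6galnac6 averaged 55.5 ± 15.6 with exosomes against 26.6 ± 8.41 without (SD, n = 12 each), a log2 difference of 1.04 ± 0.17 (limma, SE), or 2.06-fold. The estimates were 0.52 ± 0.26 in batch 1 and 1.31 ± 0.19 in batch 2. In these cultures a change in RNA per cell cannot be told apart from a change in the share of cells, and RNA brought by the exosomes was not measured apart, for this gene and all below.

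Gpc1 differed in batch 2 but hardly in batch 1. Its treated batch 2 libraries ran from 23.6 through a median of 35.4 to 45.3 normalized counts, against 15.5, 22.0 and 32.6 in untreated ones. Of the 8 treated libraries 5 were above all untreated ones, and at 2 h the treated values of 23.6 and 34.8 met untreated values of 23.9 and 32.6. The batch 1 values at 0.5, 2, 4 and 8 h were 45.4, 41.1, 43.3 and 62.1 without and 57.3, 45.7, 37.0 and 54.4 with exosomes, so that treated libraries were higher at the earlier pair of times and lower at the later pair. The log2 difference was 0.06 ± 0.17 in batch 1, 0.62 ± 0.13 in batch 2 and 0.43 ± 0.12 over both. In batch 1 the means of Gpc1 with and without exosomes, 48.6 and 47.97, do not bear out its description as raised by them.

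In the signalling genes the batches also parted. Arrb1 in batch 2 ran from 7.14 through 12.9 to 20.7 normalized counts in untreated cells at 0.5 to 8 h and from 27.8 through 30.9 to 58.7 with exosomes. All 8 treated libraries were above all 8 untreated ones, and the lowest untreated values, 7.14 and 8.09, were those at 8 h. The batch 1 values were 66.2, 25.2, 50.96 and 30.6 without exosomes and 64.8, 37.2, 47.7 and 40.8 with them, at 0.5, 2, 4 and 8 h. Untreated Arrb1 levels in batch 1 were above the treated mean of batch 2 of the same time at 0.5, 4 and 8 h. They were below it at 2 h, and at 8 h the values were close, at 30.6 and 29.5. The log2 difference was 1.39 ± 0.15 in batch 2, 0.19 ± 0.21 in batch 1 and 0.99 ± 0.17 (1.99-fold) over both.

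Ralgds had the smallest difference of the 7, from far more reads. Treated batch 2 libraries ran from 432.2 through 495.3 to 537.3 normalized counts and untreated ones from 360.0 through 405.3 to 455.9. Of the 8 treated libraries, 6 were above every untreated one, the exceptions being 1 of the pair at 0.5 h and 1 at 2 h. In batch 1 the values were 596.7, 583.2, 597.1 and 630.8 without and 690.0, 681.8, 581.2 and 599.0 with exosomes, higher in treated cells at 0.5 and 2 h and lower at 4 and 8 h. The log2 difference was 0.20 ± 0.05 over both batches (1.15-fold), with 0.09 ± 0.07 in batch 1 and 0.25 ± 0.05 in batch 2.

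The hexose transporter Slc2a6 was level between treated and untreated cells in batch 1. Its values there were 40.7, 34.5, 31.4 and 43.2 normalized counts without exosomes and 44.8, 32.9, 40.8 and 33.5 with them, and the 2 sets overlapped. In batch 2 untreated libraries ran from 42.9 through 53.7 to 57.4 and treated ones from 57.4 through 78.6 to 100.5. All 8 treated libraries were above the 8 untreated, though the closest values met at 57.4, and the highest were the libraries of 4 and 8 h. The log2 difference was 0.18 ± 0.18 in batch 1, 0.42 ± 0.13 in batch 2 and 0.34 ± 0.11 over both. Fitted to the batch 1 libraries alone, with times matched, it was 0.02, from means of 37.98 and 37.4.

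The repressor gene Nacc2 was low in batch 1, where its difference with exosomes had an estimate above that of batch 2, an order that was lost with 5 added to each count in place of 1. Batch 1 values were 8.51, 3.98, 4.25 and 2.70 normalized counts without exosomes and 9.96, 10.7, 8.15 and 11.5 with them, at 0.5, 2, 4 and 8 h, from 20 and 43 reads in all, with 3 reads or fewer in the untreated library at 2 h, at 8 h and at 0 h. The treated library was the higher at each time, though the 4 h treated value lay below the 0.5 h untreated one. In batch 2 untreated libraries ran from 19.7 through 25.6 to 31.6 and treated ones from 39.4 through 45.4 to 68.4, with no overlap. The log2 difference was 1.15 ± 0.23 in batch 1, 0.76 ± 0.17 in batch 2 and 0.89 ± 0.14 (1.86-fold) over both.

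Fam168b, by far the most abundant of the 7, differed little in size but in every pairing of time and batch. Its batch 1 values were 2484, 2253, 2692 and 2193 normalized counts without exosomes and 2678, 2558, 2849 and 2805 with them, at 0.5, 2, 4 and 8 h. Treated batch 2 libraries ran from 3352 through 3920 to 4166, against 3049, 3267 and 3374 in untreated ones. The treated library or libraries were above the untreated at 8 of 8 times by batch, as for Nacc2 and for 0.29% of the genes tested. The overlap of batch 2 as a whole came from 1 treated library at 4 h, at 3352. The log2 difference was 0.24 ± 0.04 (1.18-fold), with 0.16 ± 0.06 in batch 1 and 0.27 ± 0.05 in batch 2.

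Counted over the set, 4 of the 7 genes (St6galnac6, Nacc2, Arrb1 and Slc2a6) had every treated library above every untreated library of 0.5 to 8 h in batch 2, whatever the time, beside 0.324% of the genes tested. In batch 1 it was 0 of 7, beside 1.07%, and over both batches together 0 of 7, beside 0.189%. Compared time by time within each batch, the treated libraries were above the untreated at every time for 2 of 7 genes, beside 0.29% of the genes tested. These were Fam168b and Nacc2. In batch 2 alone this held for Fam168b besides those 4. The share over all genes was not counted for single batches, and in batch 1 each time sets 1 treated library against 1 untreated. The choice of the genes used these values, so the shares support nothing. The median log2 difference of the 7 was 0.43, and that of all genes tested -0.000619. Without the 8 libraries with Acta1 above 20, an alternative chosen after the values were seen, the median of the 7 was 0.58 and that of Arrb1 alone 1.34. The treated batch 1 libraries of 0.5, 2 and 4 h were among those left out, so these values rest mostly on batch 2.

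**Figure D2:**
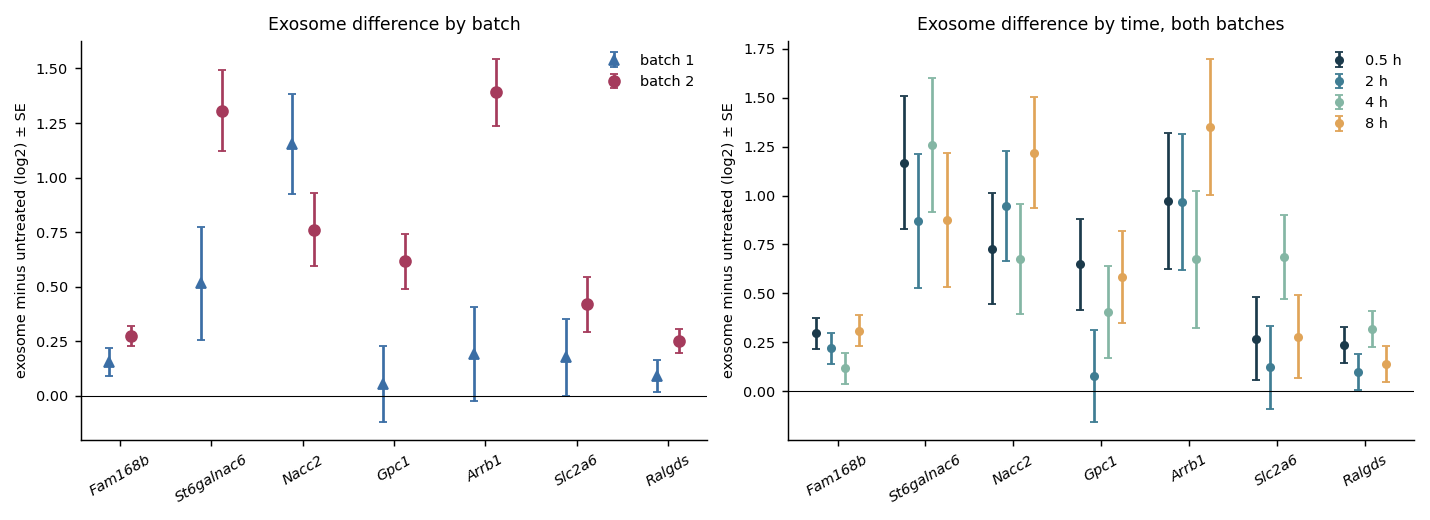
Exosome-treated minus untreated cells on the log2(normalized count + 1) scale (vertical axes) for the 7 genes, with limma estimates as points and standard errors as bars. The left panel parts batch 1 (triangles) from batch 2 (circles) and the right panel the 4 times over both batches; Arrb1 stands at 0.19 in batch 1 and 1.39 in batch 2, while Nacc2 has the higher estimate in batch 1.

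Whether the difference with exosomes depended on the batch was tested with a batch by exosome term. The genes were chosen for their rise in these libraries, and how far that choice leaned on batch 2 is not known. The test may therefore not be independent of the choice, and its p-values are given with that limit. With limma 0 of 7 passed the adjusted threshold, beside 0.0337% of the genes tested, and 3 of 7 had an unadjusted p below 0.05, beside 4.86%. The 3 were Arrb1, with a batch 2 minus batch 1 difference of 1.20 ± 0.26 (unadjusted p = 0.000101, adjusted p = 0.166), St6galnac6 (0.79 ± 0.31) and Gpc1 (0.56 ± 0.21). For Arrb1 DESeq2 on recovered reads gave 1.26 with an adjusted p of 0.0166, whereas edgeR called 0 of the 7. For St6galnac6 the value was 0.44 without exosome 0.5 h replicate 1. The estimate was positive for 6 of the genes and negative for Nacc2, at -0.39 ± 0.28, which turned to 0.01 with 5 added to each count in place of 1 and to -0.16 at the nearest when 1 library was left out. Values missing the threshold do not show that the batches had the same difference.

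Beside these stand 2 reference genes. For Tyrp1, whose transcript was seen in treated cells alone, the same term gave 1.60 ± 0.32 (limma adjusted p = 0.0941), which missed the threshold. The well-expressed gene Wsb2, an adaptor of a ubiquitin ligase, differed by 0.48 ± 0.09 in batch 1 and 1.08 ± 0.07 in batch 2, and that difference of 0.60 ± 0.11 passed the test by a narrow margin (limma adjusted p = 0.0463). Over 38 alternatives, left-out libraries included, it stayed between 0.46 and 0.72 but passed in only 7 (adjusted p from 0.00214 to 0.188). The part of the amount of exosome RNA in the differences of the 7 genes was not tested.

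No dependence on time was detected in the 7 genes. In limma's moderated F test of the 4 time-matched differences 0 of 7 were called, 0 had an unadjusted p below 0.05, and edgeR and DESeq2 called 0. Over all genes limma called 0 (0.0%), while 12.6% had an unadjusted p below 0.05. The estimates for Arrb1 were 0.97 at 0.5 h, 0.97 at 2 h, 0.67 at 4 h and 1.35 at 8 h, each ± 0.35. For Slc2a6 the highest estimate was that at 4 h, 0.69 ± 0.21, and for Gpc1 the lowest was that at 2 h, 0.08 ± 0.23. Nacc2 ranged from 0.68 at 4 h to 1.22 at 8 h, each ± 0.28.

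The order of the 9 groups by mean level put the 4 exosome groups on top for Fam168b, St6galnac6, Nacc2 and Ralgds. Exosome 0.5 h ranked highest for 6 genes and exosome 4 h for Slc2a6, whereas in batch 2 alone exosome 4 h ranked highest for Ralgds too. The lowest group over both batches was untreated 0 h for St6galnac6, Slc2a6 and Ralgds, and in batch 2 alone it was untreated 4 h for all 3. For St6galnac6 the untreated groups ran from 23.8 ± 4.21 at 0 h (n = 4) to 27.2 ± 10.4 normalized counts at 8 h (n = 3), and the exosome groups from 48.6 ± 7.32 at 8 h to 61.98 ± 25.6 at 0.5 h. The step between those sets was the only 1 of its 8 neighbouring pairs that exceeded the larger SD of the pair. For Arrb1 that held only for exosome 0.5 h (54.0 ± 13.7) above exosome 4 h (35.4 ± 10.7), and untreated 0.5 h, at 33.1 ± 28.7, lay among the exosome groups. For Fam168b, Nacc2, Gpc1, Slc2a6 and Ralgds 0 of 8 neighbouring pairs differed by more than that SD, which here includes the difference between batches. Within batch 2, where a group has 2 libraries (3 at 0 h), the count was 0 for Fam168b, 1 each for Nacc2 and Slc2a6, 2 each for Gpc1 and St6galnac6, and 3 each for Arrb1 and Ralgds. Ralgds ran from 434.2 ± 82.8 in untreated 0 h to 544.8 ± 132 in exosome 0.5 h, and Fam168b from 2872 ± 610 in untreated 8 h to 3597 ± 803 in exosome 0.5 h. Nacc2 spanned 15.97 ± 11.7 to 42.1 ± 29.7 between the same groups, Gpc1 24.8 (15.5 to 43.3) in untreated 4 h to 48.2 ± 8.04 in exosome 0.5 h, and Slc2a6 43.7 ± 17.8 in untreated 0 h to 73.7 ± 30.3 in exosome 4 h.

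Untreated cells in fresh medium showed no called change of the 7 genes from 0 h. Medium and time in culture changed together in this comparison. Its untreated libraries of 0.5 to 8 h are also the controls of the exosome difference that the genes were chosen on. Of 28 tests, 7 genes at 4 untreated times against 0 h, 0 were called by limma, edgeR or DESeq2, and 1 had an unadjusted p below 0.05 with limma. That was Nacc2 at 0.5 h, at 0.74 ± 0.26 (unadjusted p = 0.0101, adjusted p = 1.0), a value that was 0.25 in batch 2 alone and 0.44 at the lowest when 1 library was left out. Over all genes an unadjusted p below 0.05 was reached by 3.34% at 0.5 h, 14.0% at 2 h, 11.7% at 4 h and 43.2% at 8 h. Of all genes tested limma called 0.189% at 0.5 h, 1.83% at 2 h, 1.19% at 4 h and 31.7% at 8 h, so the set stood at 0 of 7 at each time, 8 h included. At 8 h the largest estimates were -0.53 ± 0.33 for Arrb1 (adjusted p = 0.217) and 0.40 ± 0.20 for Slc2a6 (adjusted p = 0.125). Without untreated 0 h replicate 1 these were -0.35 and 0.18, and in batch 2 alone that of Slc2a6 was 0.06. The 8 h count over all genes was 378 in place of 4702 without the 8 libraries with Acta1 above 20. Of the 7 genes 0 were called without them too.

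In untreated cells the batches differed for every one of the 7 genes, in a comparison added after the values were seen. Nacc2 was 1.44, 8.51, 3.98, 4.25 and 2.70 normalized counts in batch 1 at the 5 times from 0 to 8 h, and from 19.2 through a median of 25.8 to 31.6 in the 11 untreated libraries of batch 2. The groups did not overlap. With limma the log2 difference, batch 2 minus batch 1, was 2.52 ± 0.18 (adjusted p = 7.55e-11), a value that runs from 1.79 to 2.68 with other added counts or tools. Batch 1 held 21 Nacc2 reads in all. Slc2a6 was also higher in batch 2 (0.71 ± 0.14, limma adjusted p = 0.000226), as was Fam168b (0.39 ± 0.05, limma adjusted p = 9.25e-07), with batch 1 from 2193 to 2692 and batch 2 from 3049 to 3374.

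The other 4 genes were lower in batch 2. Arrb1 stood at 43.3, 66.2, 25.2, 50.96 and 30.6 normalized counts in batch 1 and from 7.14 through 13.0 to 20.7 in batch 2, again without overlap, a difference of -1.67 ± 0.17 (limma adjusted p = 2.36e-08). Gpc1 was 46.2, 45.4, 41.1, 43.3 and 62.1 in batch 1 against 15.5 through 23.9 to 32.6 in batch 2 (-1.08 ± 0.14, limma adjusted p = 7.89e-07). Ralgds differed by -0.55 ± 0.06 (limma adjusted p = 4.71e-08) and St6galnac6 by -0.63 ± 0.21 (limma adjusted p = 0.015). The last was lost without untreated 4 h replicate 2 (adjusted p = 0.0679). Limma called 45.5% of all genes tested in this comparison, so 7 of 7 stands beside that share, and what else differed between the batches cannot be told apart from the label.

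**Figure D3:**
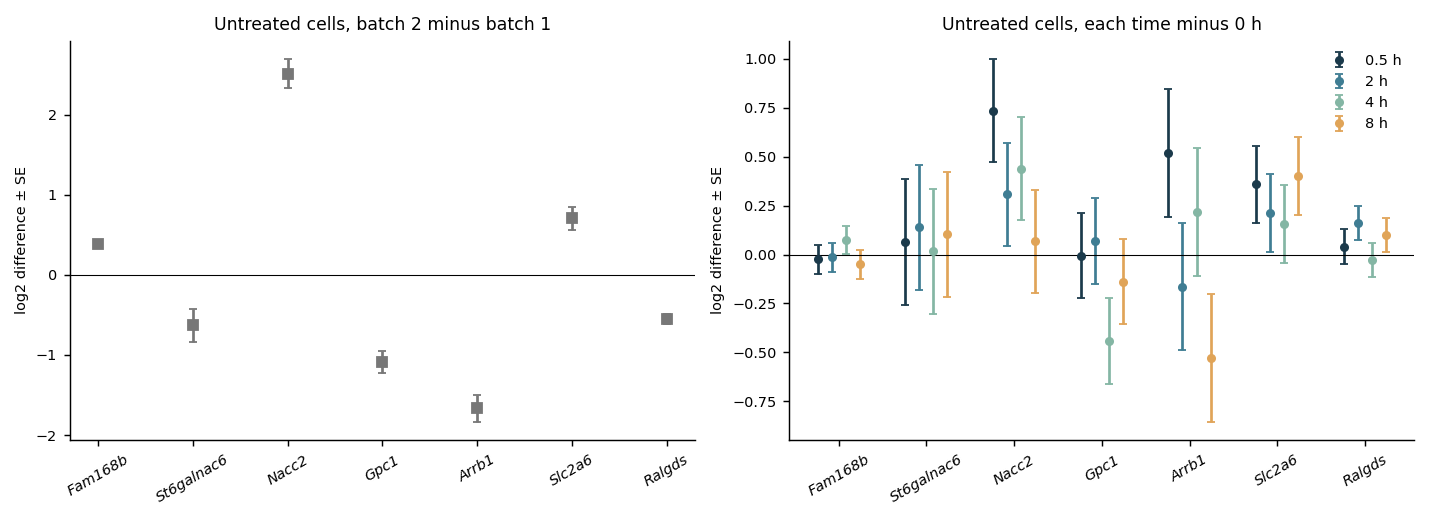
Untreated cells, log2 differences with standard errors from limma (vertical axes) for the 7 genes. The left panel shows batch 2 minus batch 1, from -1.67 for Arrb1 to 2.52 for Nacc2; the right panel shows 0.5, 2, 4 and 8 h minus 0 h, where 0 of 28 estimates were called.

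Relatives and partners of the 7 genes showed no called change with exosomes. Over 6 lists holding 124 tested genes and none of the 7, limma, edgeR and DESeq2 called 0, beside the 0.459% called of all genes, and 6 had an unadjusted p below 0.05 with limma, as had 4.54% of all genes tested. Their median log2 difference was 0.02. Of 12 tested paralogues, 11 had estimates above 0, with a median of 0.06, beside 84 of the 124 genes and 49.6% of all genes tested. Arrb2, which encodes the other beta-arrestin, averaged 1271 normalized counts with exosomes and 1201 without (0.08 ± 0.04, limma adjusted p = 0.973). Fam168a, the relative of Fam168b, averaged 1442 and 1354 (0.09 ± 0.04), and the glucose transporter gene Slc2a3 2601 and 2498 (0.06 ± 0.03).

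Within pathways, heparan sulfate synthesis and core proteins, to which Gpc1 belongs, had 0 of 19 tested genes called and a median of 0.02, with Extl3, a glycosyltransferase that starts the heparan chain, at 853 and 806 normalized counts (0.10 ± 0.05), and Xylt2, which starts the linker of such chains, at 342.1 and 324.0 (0.08 ± 0.04). Of 21 genes for sialic acids and gangliosides, the setting of St6galnac6, 0 were called (median 0.03). St6gal1, which adds sialic acid to N-glycans, averaged 58.1 and 48.2 (0.22 ± 0.10), and B4galt5, a galactosyltransferase, 2579 and 2464 (0.07 ± 0.03). Receptor desensitisation and arrestin partners had 0 of 27 called (median 0.03). The lowest p there was that of Rgs16, a brake on G protein signals, at 238.7 with and 216.9 without exosomes (0.13 ± 0.05, limma adjusted p = 0.67). Next was Ap2a1, a subunit of the clathrin adaptor, at 2032 and 1936 (0.07 ± 0.04). The Ral pathway had 0 of 24 called (median 0.01). The lowest p values were those of Rap1b, a small GTPase, at 3699 and 3837 (-0.05 ± 0.03), and the actin crosslinker Flna at 10690.0 and 10190.0 (0.07 ± 0.05). The GTPases that RALGDS switches on were Rala at 792.1 and 826.2 and Ralb at 829.4 and 817.7, both named after their values were seen. Partners of NuRD and BTB repressors had 0 of 21 called (median 0.02), with Mbd2, a reader of methylated DNA in that complex, at 2744 and 2892 (-0.08 ± 0.03) and the deacetylase gene Hdac2 at 1642 and 1724 (-0.08 ± 0.05).

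Nacc2, Slc2a6, Ralgds and St6galnac6 lay within 6.57 Mb of chromosome 2, with gaps of 898.1, 1485.1 and 4046.6 kb between them. Of the 118 other genes tested in that stretch 1 was called with limma, beside 0.459% of all genes. It was Sardh, which encodes sarcosine dehydrogenase of mitochondria, with 10 reads in untreated and 89 in treated libraries (2.30 ± 0.40, adjusted p = 0.00182). It was not called in batch 1 alone, nor tested where genes under 10 normalized counts in untreated cells were left out. The median of the 118 was 0.03, and 67.8% had an estimate above 0 against 49.6% of all genes tested. By batch the median was 0.068 in batch 1 and 0.018 in batch 2. With 5 Mb added on each side, 58.4% had an estimate above 0. Well-expressed neighbours came next by p without being called, as Rapgef1, an exchange factor for Rap1, at 2776 with and 2467 without exosomes (0.17 ± 0.05, limma adjusted p = 0.155), and the mitochondrial carrier gene Slc25a25 at 212.2 and 190.4 (0.15 ± 0.05, limma adjusted p = 0.454).

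**Figure D4:**
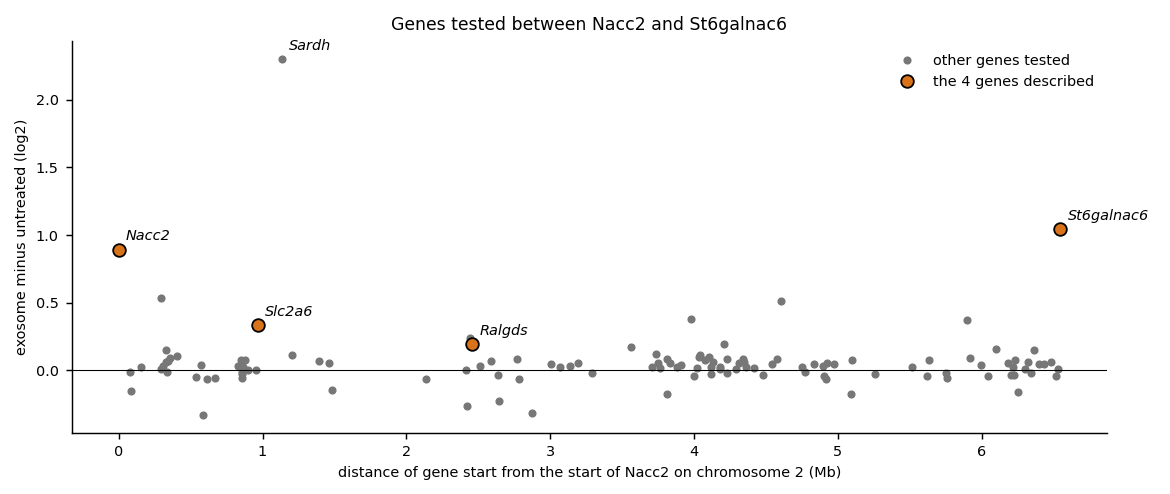
Exosome-treated minus untreated cells (log2, vertical axis) for the genes tested between Nacc2 and St6galnac6 against the distance of each gene's start from that of Nacc2 in Mb. Orange points are the 4 genes described and grey points the 118 others, whose median is 0.03; Sardh, at 2.30, is the one called.

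Across the 28 libraries, after removal of the batch means, the 21 pairs among the 7 genes had Pearson correlations of log2 values from 0.29 (Slc2a6 with Fam168b) to 0.78 (Arrb1 with St6galnac6), with a median of 0.64. These libraries share the treatment that the genes were chosen on, so the correlations are a description only. Of all genes tested, the one most like St6galnac6 was Wsb2 (r = 0.91), followed by Ajuba, a LIM-domain scaffold (0.90), and Sox11, a transcription factor (0.89). Ajuba and Sox11 averaged under 1 normalized count in untreated cells, at 0.946 and 0.072. Nacc2 was closest to Wtip, another LIM-domain protein (0.84), Enho (0.83) and Lbh (0.83), with untreated means of 0.296, 0.079 and 1.20. Arrb1 was closest to Cmtm4 (0.85), Ctdspl (0.83) and Cerk, the ceramide kinase (0.83).

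Genes well expressed in untreated cells were closest to Fam168b: Kif1c, a kinesin motor (0.92), Cmtm4 (0.88) and Sec22c (0.86), at 1600, 367 and 448 normalized counts. Gpc1 was most like Btg3, an antiproliferative factor (0.76), Nfe2l1 (0.71) and Poglut1 (0.69). The genes nearest to Slc2a6 were Ppp1r16a (0.77), Ncf4, a subunit of the phagocyte oxidase (0.76), and Rrad (0.74), whose own exosome differences were 0.12, 0.10 and 0.07 on the log2 scale. Those nearest to Ralgds were Enho (0.78), Wsb2 (0.77) and Slc6a15 (0.75), the last of these with a mean of 0 in untreated cells. With Spearman correlation 8 of these 21 places went to the same genes.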

How the data were processed

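Read counts came from paired-end RNA sequencing. The tools in the submitters' processing notes are STAR 2.4.2, featureCounts 1.5.0, CASAVA 1.8.4, R 3.3.2 and DESeq2, and the build is GRCm38.p2. Their settings, the annotation release and the use of strand were not given in the sources used here. The deposited values are a normalized signal: the authors scaled the reads of each library by its size factor. Undoing that scaling returned whole reads in 100.0% of values, to within 0.01 read, and depth was 6072984 to 24085812 reads. Counting error at low reads is a lower limit on error, since reads carry no molecular identifiers. Identifiers were matched to GENCODE M21 (30403 of 30608 found, 23993 with the same version).

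limma 3.58.1 (R 4.3.3, mean-variance trend) was fitted to log2(normalized count + 1) for genes that reached 10 normalized counts in 3 libraries or more. The model held the 9 group means and a term for batch, over 28 libraries (18 residual degrees of freedom). Log2 differences are on that scale, which understates changes of low genes. Differences between batches used an added batch by exosome term. Benjamini-Hochberg adjustment ran over all 14828 genes, with calls below 0.05; ± after a log2 difference is limma's standard error and after a level the SD. edgeR 4.0.16 and DESeq2 1.42.0 on the recovered reads were alternatives, with 68 and 78 genes called over the 4 times against 68 by limma. Other alternatives changed the added count, the filter, the size factors, the batch term, the replicate block and the libraries used. The fitting code was tested on simulated data. Against counting noise, pairs of replicates had a chi-square per degree of freedom of 1.32 to 28.5 within batches. Across batches it was 17.2 to 133. No replicates were merged.

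The members and lists were chosen with earlier results of these data known. Named besides the 7 members were, per list, up to 4 called genes or the 2 with the smallest p, the 3 genes with the highest correlation to each member, called genes between the chromosome 2 members, Tyrp1, Wsb2 and Acta1. Arrb2, Rala, Ralb, Rapgef1 and Slc25a25 fall outside that rule and were named after their values were seen.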

Additional observations from a re-analysis of the deposited data

Results flagged for a closer look

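Both of the values that stood apart belong to untreated 0 h replicate 1, the one library of that group in batch 1. Arrb1 was at 43.26 normalized counts there, against 9.57, 13.0 and 14.8 in the other replicates, a gap of 0.845 of the group's range, above Dixon's limit for 4 samples. Slc2a6 was at 17.3 against 49.1, 53.03 and 55.3, a gap of 0.835 of the range. The 7 genes were each examined in this group. Chance alone sets such a mark on about 1 group in 20 where all replicates are of 1 kind. Here all 7 genes differed between the batches in untreated cells, so that rate does not apply. Arrb1 was also higher and Slc2a6 also lower in batch 1 at the other untreated times.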

How the results depend on the processing

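Of 2219 values of single members under the alternatives, 2212 counted as kept. An exosome difference was kept if its sign stayed and it moved by less than the spread between replicates. A tested value was kept if it stayed on its side of the threshold and, where called, in its direction. Values not called could change sign and still count as kept. For Nacc2 at 8 h against 0 h they ran from -0.128 to 0.329 over 12 settings. The median exosome difference of the 7 ran from 0.18 to 0.63 over 13 settings and from 0.37 to 0.51 leaving out each library in turn. In batch 1 alone it moved for St6galnac6 (0.43), Gpc1 (0.02), Arrb1 (0.21), Slc2a6 (0.02) and Ralgds (0.08). DESeq2 called 1 member, Arrb1, for the batch difference of the exosome effect. Genes called in the chromosome 2 stretch were 4 with no filter, 0 with an untreated mean of 10 or more, 0 in batch 1 alone, and 1 to 2 leaving out each library (2 without exosome 4 h replicate 1 or untreated 8 h replicate 3). Spearman correlation kept 8 of 21 nearest genes. Replicate numbers were given to 12 pairs, of which 3 correlated above 0.1 (-0.25 to 0.28), so they do not pair the samples; with the replicate block 0 member tests against 0 h were called and 7 of 7 in the untreated batch comparison, and the counts over all genes went from 272 to 138 at 2 h and from 177 to 92 at 4 h. Over all genes, those called with exosomes numbered 193 with no filter, 13 with the untreated mean filter and 3 in batch 1 alone. Counts against 0 h were 148 to 325 (2 h), 52 to 228 (4 h) and 2109 to 5679 (8 h) leaving out each library; without the batch term they were 12, 18, 10 and 1834 from 0.5 to 8 h. In batch 2 alone they were 495 at 2 h and 692 at 4 h, and with DESeq2 416 and 287. Without the 2 libraries with the fewest genes at 0 the 4 h count was 78, and without the filter the 2 h count 176. For the difference between times, 1347 genes were called without untreated 8 h replicate 3, 3 in batch 2 alone, 1 without the Acta1 libraries and 5 with DESeq2; for the batch difference, 1 to 11 under the other settings and 135 without the Acta1 libraries. Leaving out libraries by summed muscle markers above 20 was not run, since the lowest sum was 553.8; Acta1 above 20 took its place after the data were seen. The cause of these changes was not tested.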
